A study of Mus musculus with 6 samples.

Results

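The genes described here encode 10 non-collagen proteins of bone matrix: *Spp1*, *Sparc*, *Postn*, *Fn1*, *Bgn*, *Dcn*, *Tnc*, *Thbs1*, *Mgp* and *Ibsp*. They were taken by symbol from a written list that was drawn up with earlier results of these data known. Of the 11234 genes with a row in the tables, 9 were members. *Ibsp*, which encodes bone sialoprotein, had no row and is not analysed here. The levels come from MC3T3-E1, a line of murine preosteoblasts that derives from the skull bone of C57BL/6 mice and was used at passage 4. After a period in serum-free medium, cells went into complete medium with 100 μmol/L cyanidin-3-O-glucoside (C3G), an anthocyanin pigment of plants, for 3 libraries and without it for the 3 control libraries. RNA was taken after 24 h, and the comparison asks which transcripts C3G changed in bone-forming cells. The culture methods name no medium that drives mineralisation. Every library is of the same line, and the labels do not say whether the libraries of a group came from separate cultures, so p-values measure only the spread between these libraries, which may be technical.

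Bone matrix consists mainly of collagen fibres, between which osteoblasts place a smaller set of glycoproteins and proteoglycans. Some of these carry the RGD motif by which integrin receptors attach cells (fibronectin, osteopontin, thrombospondin-1), some bind collagen and tune how fibres assemble (biglycan, decorin, osteonectin, periostin), and some bind mineral or restrain its growth (osteopontin and matrix Gla protein). Several of them are called matricellular because they signal to cells and modify adhesion rather than bear load.

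Levels are in FPKM, the authors' fragment count scaled to the length of the gene model and to the mapped fragments of the library. Genes of different length can therefore be compared, but this scaling does not remove the relation to GC content given below. The depth of the libraries is unknown, so no counting error can be given. All 10 osteoblast lineage markers had a row, led by *Col1a1* (the main bone collagen) at 4432, 942 and 1221 FPKM in control libraries 1, 2 and 3 and at 923 to 1478 FPKM with C3G, with *Runx2* at 5.46 to 9.07 FPKM and *Sp7*, a later factor of the same lineage, at 0.237 to 0.857 FPKM. *Pth1r* and *Msx2* were low as well, at means of 0.489 and 0.967 FPKM over the 6 libraries. Of 9 osteoclast or macrophage markers only *Ctsk* (mean 30.3 FPKM) and *Cd68* (mean 0.772 FPKM) had a row. Of 6 adipocyte markers only *Cebpa* did, and of 7 endothelial or muscle markers only *Des*. The 4 of 6 chondrocyte markers with a row summed to 93.6 to 214 FPKM in control libraries and 89.4 to 114 FPKM with C3G. *Acan* and *Col10a1* were not among them. Most of each sum was *Sox9* and *Col2a1*, with means of 65.5 and 52.0 FPKM over the 6 libraries, above that of *Runx2* (7.98). The sum of 214 FPKM was that of control replicate 1, where *Sox9* had 106 and *Col2a1* 104 FPKM. In control replicates 2 and 3 *Sox9* had 48.2 and 56.5 FPKM and *Col2a1* 43.7 and 46.9 FPKM. Control replicate 1 stood apart from the other libraries: its level, relative to the mean of control replicates 2 and 3, was the higher, the more GC a transcript held (rho 0.769 by Spearman over 11211 genes, which are not independent replicates). The level in C3G replicate 1, relative to C3G replicates 2 and 3, followed GC content too, with a rho of 0.651. Results of the matrix genes that turned on it are therefore also given without it or with a correction for GC content. In a culture sequenced in bulk, fewer cells that make a transcript and less of it per cell cannot be told apart.

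The 9 genes together held 1.15% to 1.31% of the summed FPKM of a library. *Fn1* alone held 0.549% to 0.697%, which was 47.2% to 53.3% of the summed level of the 9 genes. By mean FPKM over the 6 libraries the order was *Fn1* (1514), *Sparc* (680), *Spp1* (286), *Mgp* (157), *Thbs1* (143), *Bgn* (102), *Postn* (67.1), *Dcn* (36.2) and *Tnc* (15.6). *Fn1* ranked 11th of all genes by mean level, and *Sparc* ranked 34th. *Dcn* (rank 1259) and *Tnc* (rank 3046) ranked lowest, after *Postn* at rank 582.

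The order was firm at the top and loose in the middle. *Fn1* was above *Sparc* and *Sparc* above *Spp1* in 6 of 6 libraries, with no overlap of their ranges. *Spp1* was above *Mgp* in 6 of 6 libraries, and their ranges were apart within each group but not over all libraries. *Mgp* and *Thbs1* could not be ordered beyond their spread, since *Mgp* was higher in 4 of 6 libraries. *Thbs1* was above *Bgn* in 5 of 6 libraries, and the ranges overlapped among the C3G libraries. *Bgn* was above *Postn* and *Postn* above *Dcn* in every library, although the control ranges of each pair overlapped. *Dcn* was above *Tnc* in 5 of 6 libraries, control replicate 1 being the exception.

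**Figure D1:**
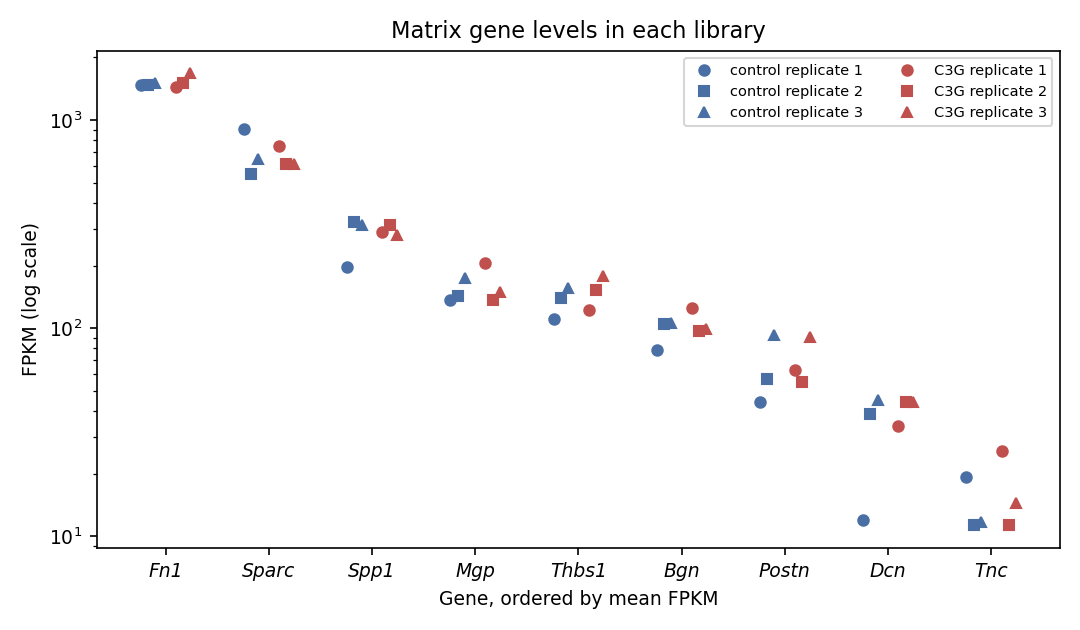
FPKM of the 9 matrix genes on a log axis in each of the 6 libraries, with circles, squares and triangles for replicates 1, 2 and 3 and with control in blue and C3G in red. The groups overlap in every gene, and the lowest point of *Dcn*, at 12.0 FPKM, is control replicate 1.

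None of the 9 genes passed the thresholds for a difference between C3G-treated and untreated cells, which were a fold change of at least 1.2 with a limma p under 0.05. Over all genes 0.650% passed (73 of 11234), and 0 genes passed after Benjamini-Hochberg adjustment, with 74 at an unadjusted limma p under 0.05. The smallest limma p among the 9 genes was 0.310 (*Dcn*), and every adjusted p was 0.992. The C3G and control values overlapped in each of the 9 genes, where the groups did not overlap in 4.02% of all genes. The log2 fold change, computed on log2(FPKM + 1), ran from -0.06 (*Sparc*) to 0.52 (*Dcn*) with a median of 0.14, beside a median of 0.06 over all genes. It was above 0 in 8 of the 9 genes, and in 62.0% of all genes. Without control replicate 1 it was above 0 in 6 of the 9, with a median of 0.019. With the GC correction these values were 6 of 9 and 0.061, and with replicates 2 and 3 only 5 of 9 and 0.042. The median over all genes was -0.012, -0.0026 and -0.011 under these settings in turn. Called genes that rose made up 0.401% of the table and those that fell 0.249%.

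A p above the threshold does not show that a gene was the same in both groups, so the interval of each difference was computed. With all libraries, the 95% confidence intervals of the fold change lay between 0.639 and 3.11 over the 9 genes, and each of the 9 included a ratio of 1. With the GC correction the outer bounds were 0.665 and 1.85. With replicates 2 and 3 of both groups only, they were 0.559 and 1.69, and both of these bounds belonged to *Postn*. In these last fits too, the intervals of all 9 genes included a ratio of 1. None of the 9 genes passed under any of the 15 alternative settings. Over all genes the called share was 0.588% with a pseudocount of 0.1, 0.516% with a floor on mean FPKM of 1, 0.427% with an ordinary linear model, 0.534% with quantile normalization and 0.490% with median centring. It was 1.26% with the GC correction, 2.21% with this and the replicate block, and 1.70% with replicates 2 and 3 only. Leaving out control replicate 1, 2 or 3 gave 1.28%, 1.13% and 0.890%, and leaving out C3G replicate 1, 2 or 3 gave 0.401%, 0.356% and 0.383%.

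**Figure D2:**
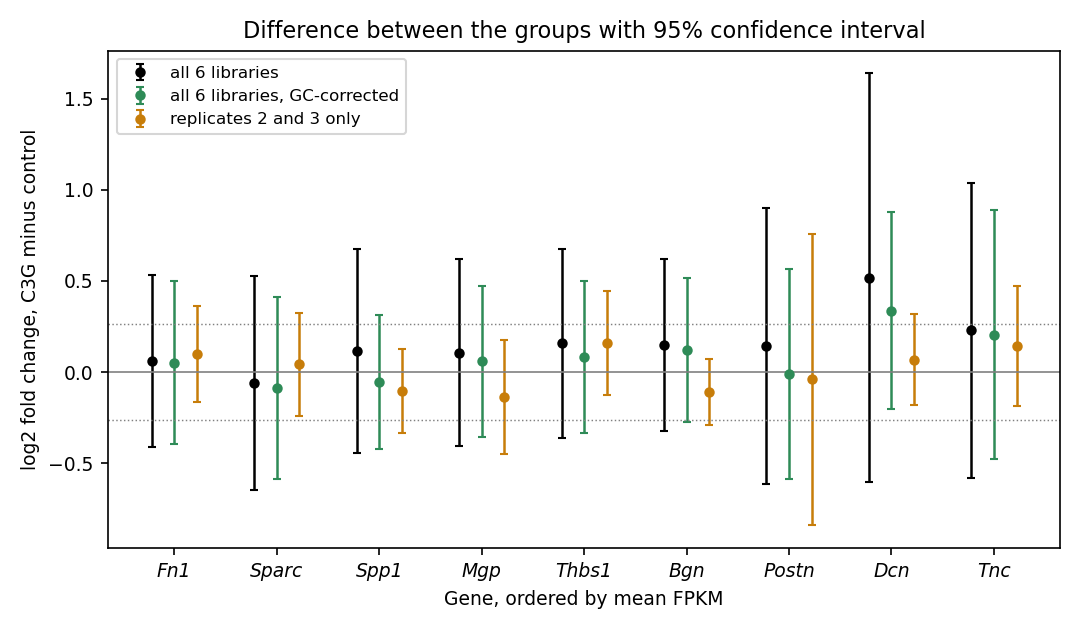
Log2 fold change (C3G minus control, on log2(FPKM + 1)) of each matrix gene with its 95% confidence interval from limma, with all 6 libraries (black), after GC correction (green) and with replicates 2 and 3 only (orange). Dotted lines mark a fold change of 1.2 in either direction, and every interval crosses 0.

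Averaged over pairs of libraries, those of the same replicate number lay closer together than those of the same group in most genes. For 8 of the 9 genes the mean absolute log2 difference between same-number libraries was smaller than that between libraries of the same group. *Bgn* was the exception. The same held for 77.2% of all genes. These are averages and need not hold for each library. In *Dcn*, C3G replicate 1 differed by 1.42 from control replicate 1 and by -0.37 from the mean of C3G replicates 2 and 3. Within pairs of the same number, 7 of 9 genes were higher with C3G in replicate 1, 5 of 9 in replicate 2 and 3 of 9 in replicate 3. The median absolute difference was 0.51 on the log2 scale in replicate 1, 0.051 in replicate 2 and 0.15 in replicate 3. *Thbs1* and *Tnc* were higher with C3G in all 3 pairs, as were 14.2% of all genes. None was lower in all 3 pairs, where 11.6% of all genes were. With the replicate number as a block, again 0 of the 9 genes passed, where 1.50% of all genes did, and the smallest limma p was 0.158 (*Tnc*).

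**Figure D3:**
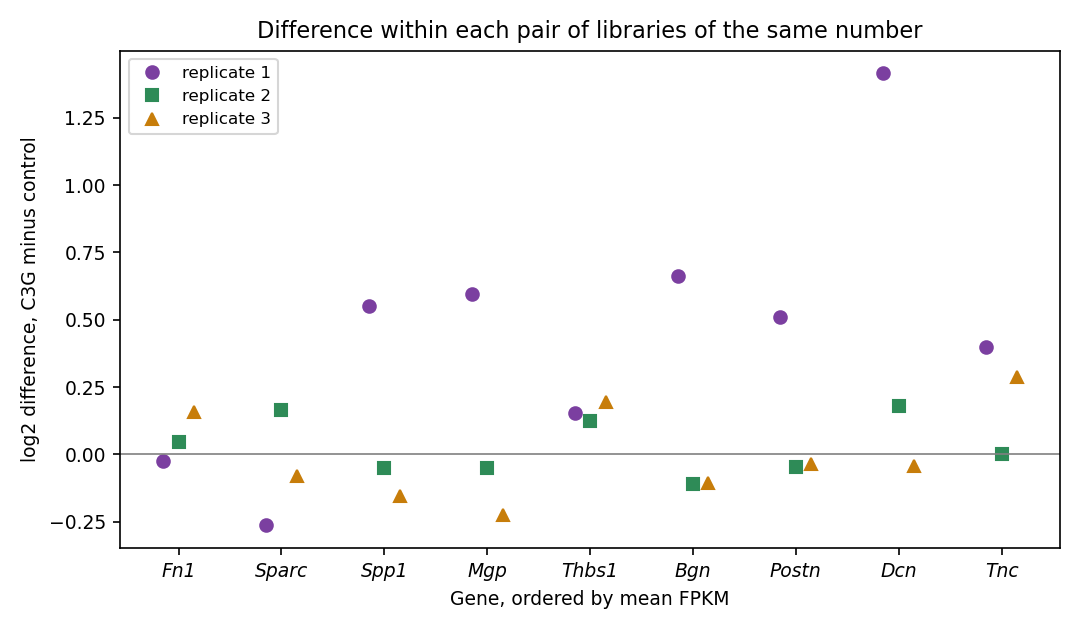
Log2 difference, C3G minus control on log2(FPKM + 1), within each pair of libraries of the same replicate number. The pair of replicate 1 runs from -0.26 (*Sparc*) to 1.42 (*Dcn*), while those of replicates 2 and 3 stay between -0.22 and 0.29.

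Fibronectin, the product of *Fn1* (ENSMUSG00000026193.15, chromosome 1 of GRCm38, 71585520 to 71653200, minus strand), forms the first fibrils to which cells attach and on which collagen is laid. Untreated libraries 1, 2 and 3 had 1471, 1469 and 1505 FPKM of *Fn1*, and treated libraries 1, 2 and 3 had 1446, 1516 and 1678 FPKM. The controls lay close together, and the lowest and the highest library were both C3G libraries. Its spread was the smallest of the 9 genes, with a pooled within-group SD of 0.079 on the log2 scale, and only 3.78% of all genes varied less. On the log2 scale the C3G libraries differed from control by 0.06 ± 0.198 (SE), and the 95% interval of the fold change was 0.752 to 1.44 (exact permutation p = 0.6). This standard error is moderated toward that of other genes at a like level, and the ordinary linear model gave 0.064, with an interval of 0.921 to 1.18. The sign turned with quantile normalization (-0.061) and with median centring (-0.0062). Exons of *Fn1* overlap those of *Apol7d* on the opposite strand, and the authors' use of strand in counting is not stated.

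Among the genes whose products touch mineral, *Spp1* (ENSMUSG00000029304.14, chromosome 5, 104435118 to 104441050, plus strand) encodes osteopontin, an acidic phosphoprotein that attaches cells through integrins and CD44 and slows crystal growth. *Spp1* stood at 197, 323 and 312 FPKM in untreated libraries 1, 2 and 3, against 289.7, 312 and 280.2 FPKM in the treated ones. Control replicate 1 was the low library, and the other 5 lay close together. The difference was 0.12 ± 0.235 (SE) on the log2 scale, with a 95% interval of the fold change from 0.736 to 1.60 (exact permutation p = 1). Without control replicate 1 it was -0.11, so the sign of this difference rested on that library. The transcript shares 7.47% of its stretches of 75 bases with *Gm42793*, whose exons overlap on the same strand, and how the authors assigned such reads is not stated.

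*Mgp* (ENSMUSG00000030218.2, chromosome 6, 136872435 to 136875823, minus strand) encodes matrix Gla protein, a small inhibitor of calcification that works only after vitamin K-dependent carboxylation. It stood at 136, 142 and 174 FPKM in untreated libraries 1, 2 and 3, against 206, 137 and 149 FPKM in the treated ones. The highest library was C3G replicate 1, and the other C3G libraries lay within the range of the controls. The difference of 0.11 ± 0.215 (SE, log2 scale) was within the spread of the libraries (exact permutation p = 0.6), with a 95% interval of the fold change from 0.755 to 1.54. It was -0.067 without C3G replicate 1. The ratio of *Spp1* to *Mgp* within a library followed the replicate number: it was 1.45, 2.27 and 1.79 in control libraries 1, 2 and 3 against 1.41, 2.27 and 1.88 with C3G.

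Of the matricellular genes, *Sparc* (ENSMUSG00000018593.13, chromosome 11, 55394500 to 55423183, minus strand) was the most abundant. It encodes osteonectin, a glycoprotein that binds calcium and collagen. *Sparc* stood at 901, 548 and 649 FPKM in untreated libraries 1, 2 and 3, against 751, 614 and 614 FPKM in the treated ones. Replicate 1 was the highest library of each group, and the C3G values lay inside the range of the controls. It was the only member with a lower mean log2 level under C3G, by -0.06 ± 0.246 (SE, log2 scale), an interval of the fold change from 0.639 to 1.44 (exact permutation p = 0.8). Without control replicate 1 the difference was 0.14.

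*Thbs1* (ENSMUSG00000040152.8, chromosome 2, 118111876 to 118127133, plus strand) encodes thrombospondin-1, a trimeric glycoprotein that binds CD47 and CD36 and activates latent TGF-β. It stood at 110.4, 139.6 and 156 FPKM in untreated libraries 1, 2 and 3, against 123, 152 and 179 FPKM in the treated ones. Each C3G library lay above the control library of the same number, while the groups overlapped. The within-pair differences were 0.15, 0.12 and 0.20 on the log2 scale, the most even of the 9 genes in size and sign. Without regard to the numbers, the difference was 0.16 ± 0.217 (SE, log2 scale, with an exact permutation p of 0.5). The interval of the fold change was 0.780 to 1.60. The difference was 0.019 without control replicate 1 and 0.16 with replicates 2 and 3 only. The standard error was 0.122 with the replicate block, where the interval of the fold change ran from 0.895 to 1.39. Exons of the gene overlap those of *Gm29233* on the opposite strand.

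*Postn* (ENSMUSG00000027750.16, chromosome 3, 54361109 to 54391037, plus strand) encodes periostin, a protein of periosteum and ligament that helps collagen to crosslink. Its level was 44.0, 56.9 and 92.7 FPKM in untreated libraries 1, 2 and 3, against 63.2, 55.1 and 90.5 FPKM in the treated ones. Replicate 3 was the high library of both groups, and the libraries of replicates 2 and 3 differed between groups by -0.045 and -0.034 on the log2 scale. Over all libraries the difference was 0.14 ± 0.318 (SE), with an interval of the fold change from 0.655 to 1.87 (exact permutation p = 0.8). It turned to -0.092 without control replicate 1, -0.058 without C3G replicate 3 and -0.012 with the GC correction, and it was 0.44 without control replicate 3. *Postn* had the third largest within-group spread of the 9 genes, with a pooled SD of 0.46 on the log2 scale beside a median of 0.28 over all genes.

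*Tnc* (ENSMUSG00000028364.15, chromosome 4, 63959785 to 64047015, minus strand) encodes tenascin-C, a large hexameric protein that loosens cell attachment and is made where tissue is remodelled. It was the least abundant member, at 19.3, 11.3 and 11.7 FPKM in untreated libraries 1, 2 and 3, against 25.8, 11.3 and 14.5 FPKM in the treated ones. Replicate 1 was the highest library of each group, and replicate 2 hardly differed between groups (0.0027 on the log2 scale). The difference over all libraries was 0.23 ± 0.340 (SE, log2 scale), with an interval of the fold change from 0.670 to 2.05 (exact permutation p = 0.6), and it was -0.089 without C3G replicate 1. Its exons overlap those of *8030451A03Rik* on the opposite strand.

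The pair of small leucine-rich proteoglycans, *Bgn* and *Dcn*, encode biglycan and decorin, which share a core of leucine-rich repeats, carry chondroitin or dermatan sulfate chains and bind collagen fibrils and TGF-β. *Bgn* (ENSMUSG00000031375.17, chromosome X, 73483602 to 73495933, plus strand) stood at 78.5, 105 and 106 FPKM in untreated libraries 1, 2 and 3, against 125, 97.1 and 98.5 FPKM in the treated ones. The lowest library was control replicate 1 and the highest was C3G replicate 1. All libraries together gave a difference of 0.15 ± 0.197 (SE, log2 scale, with an exact permutation p of 0.6), and an interval of the fold change from 0.801 to 1.54. Without control replicate 1 the difference was 0.0082, and with replicates 2 and 3 only -0.11, with an interval of the fold change from 0.817 to 1.05.

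*Dcn* (ENSMUSG00000019929.16, chromosome 10, 97479609 to 97518143, plus strand) stood at 12.0, 38.7 and 45.3 FPKM in untreated libraries 1, 2 and 3, against 33.7, 43.9 and 43.9 FPKM in the treated ones. Control replicate 1 lay far under the other 5 libraries, among which the groups overlapped. Its log2 fold change was the largest of the 9 genes, at 0.52 ± 0.471 (SE), and the interval of the fold change was the widest, from 0.658 to 3.11 (exact permutation p = 0.7, where 0.1 is the smallest p this design allows). Without control replicate 1 it was -0.056, with replicates 2 and 3 only 0.069 and after GC correction 0.34. The ratio of *Bgn* to *Dcn* was 6.54 in control replicate 1 and 3.71 in C3G replicate 1, while the remaining libraries had 2.71 and 2.34 without C3G and 2.21 and 2.24 with it.

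The transcripts of this pair differ in base composition, at 52.5% GC for *Bgn* and 42.8% for *Dcn* over the longest protein-coding transcript. The first 120 coding bases of each are shown to make this difference visible, since *Dcn* was the member that departed most in control replicate 1. They are printed 5′ to 3′ on the plus strand from the start codon, with G and C in capitals, and each lies within a single coding exon in GENCODE M21 on GRCm38. The *Bgn* stretch (chrX:73490790-73490909) holds 67 G or C bases, and the *Dcn* stretch (chr10:97483363-97483482) holds 54.
Bgn: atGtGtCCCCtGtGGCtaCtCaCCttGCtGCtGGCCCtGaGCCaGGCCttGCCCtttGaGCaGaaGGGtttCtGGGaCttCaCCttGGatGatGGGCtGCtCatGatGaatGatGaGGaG
Dcn: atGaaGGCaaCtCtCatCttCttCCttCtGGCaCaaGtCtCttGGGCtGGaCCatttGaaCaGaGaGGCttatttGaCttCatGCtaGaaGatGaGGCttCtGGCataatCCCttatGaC

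Across the 9 genes the departure of control replicate 1 followed GC content as well, with a rho of 0.883 by Spearman over these genes. For C3G replicate 1, relative to C3G replicates 2 and 3, the rho was 0.533. The members of lowest GC content were *Dcn* (42.8%), *Spp1* (43.3%) and *Postn* (44.1%), and they were lower in control replicate 1 than in the mean of control replicates 2 and 3, by -1.72, -0.68 and -0.71 on the log2 scale. *Thbs1* (49.9%) and *Mgp* (51.4%) departed by -0.42 and -0.21. The highest departures belonged to *Sparc* (52.5%) at 0.60 and *Tnc* (52.5%) at 0.70, while *Bgn*, of like GC content, departed by -0.42 and *Fn1* (53.5%) by -0.016. Over all genes the median departure was -0.92 for 2067 transcripts of 40% to 45% GC and 0.025 for 2882 transcripts of 50% to 55% GC.

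Over the 9 small leucine-rich proteoglycans with a row, *Bgn* and *Dcn* included, the rho was 0.750 for control replicate 1 and 0.683 for C3G replicate 1. The relatives below were named after their values were seen. *Ogn* (osteoglycin, 36.3% GC) stood at 16.7, 97.4 and 116 FPKM in untreated libraries 1, 2 and 3, against 103, 126 and 136 FPKM in the treated ones. *Lum* (lumican, 41.9% GC) stood at 4.46, 22.8 and 27.2 FPKM in untreated libraries 1, 2 and 3, against 16.0, 24.6 and 25.9 FPKM in the treated ones. Both were lowest in control replicate 1, and the other 5 libraries overlapped between groups. *Ogn* was higher with C3G in each same-number pair, by 2.55, 0.37 and 0.23 on the log2 scale, and *Lum* in 2 of 3. With the block and GC correction *Ogn* passed the thresholds (limma adjusted p 0.795), where 2.21% of all genes did. With replicates 2 and 3 only it passed too (log2 fold change 0.30, limma adjusted p 0.9999), where 1.70% of all genes did. *Aspn* (asporin, 34.3% GC) had 1.51, 6.06 and 5.86 FPKM without C3G against 6.25 to 7.36 FPKM with C3G. *Omd* (osteomodulin, 36.1% GC) had 0.203, 1.65 and 1.72 FPKM against 1.75 to 1.99 FPKM with C3G. In *Aspn* and *Omd* every C3G library lay above every control library, where the groups did not overlap in 4.02% of all genes. The exact permutation p was 0.1 for both, the smallest this design allows, and the limma p was 0.139 and 0.172. Their log2 fold changes of 0.68 and 0.49 became 0.19 and 0.10 without control replicate 1, and 0.25 and 0.095 with replicates 2 and 3 only. In control replicate 1 the departures were -2.60 for *Ogn*, -2.25 for *Lum*, -1.47 for *Aspn* and -1.16 for *Omd*. The added 1 in log2(FPKM + 1) makes such values smaller for genes of low FPKM, so those of *Aspn* and *Omd* cannot be ranked against the others. The family members of higher GC content, *Fmod* (fibromodulin), *Prelp* and *Podn*, departed by 0.16, 0.35 and 0.45 on the log2 scale in control replicate 1.

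**Figure D4:**
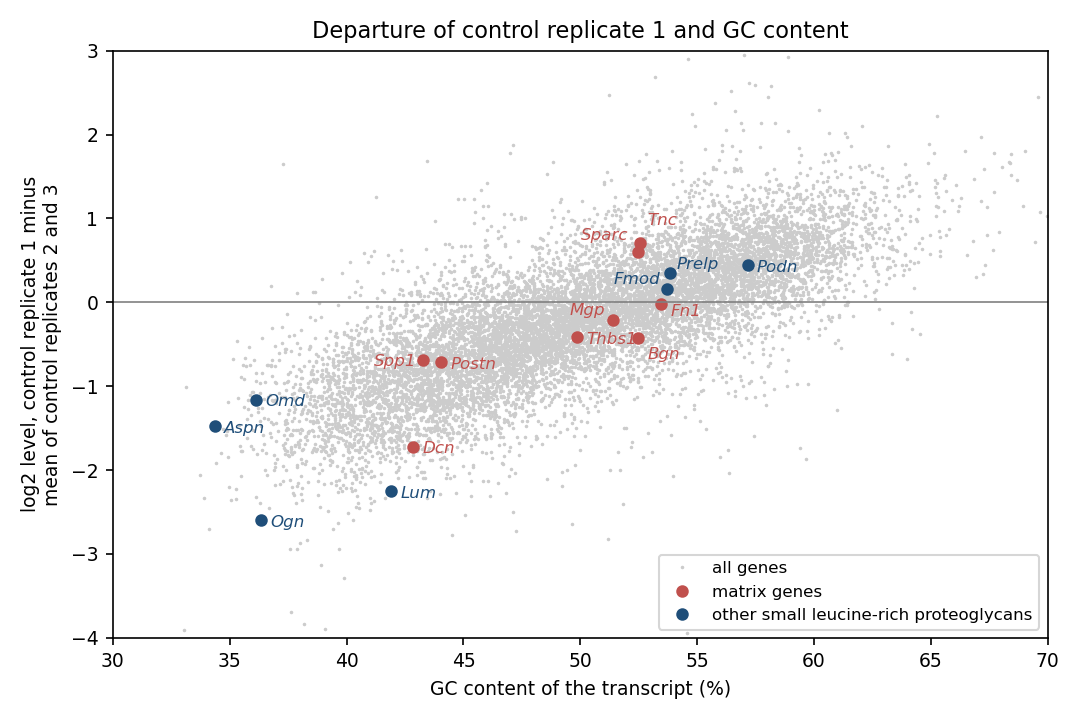
GC content of the longest protein-coding transcript (percent, x axis) against the log2 level in control replicate 1 minus the mean of control replicates 2 and 3 (y axis), for all genes (grey), the matrix genes (red) and other small leucine-rich proteoglycans (blue), with 20 of 11211 genes outside the axes. *Dcn*, *Lum* and *Ogn* lie lowest among the named genes, at -1.72, -2.25 and -2.60.

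The other genes of this matrix came from a list of 61 relatives of the members, such as further leucine-rich proteoglycans, thrombospondins, CCN proteins, fibulins and laminins, of which 40 had a row. None of the 40 passed the thresholds, where 0.650% of all genes did, and their median log2 fold change was 0.11, with 27 above and 13 under 0. The sign turned in 16 of the 40 when control replicate 1 was left out, and the median was 0.10. That setting keeps C3G replicate 1, so here and in the lists below the replicate numbers are not balanced between the groups. All C3G libraries lay above all control libraries in 3 of the 40 (*Aspn*, *Omd* and *Smoc1*), and over all genes 4.02% did not overlap in either direction. The most abundant relatives were *Fmod*, *Nid2* (a basement membrane protein), *Ecm1* and *Ccn3*. *Fmod* had 220.3 ± 29.1 FPKM (SD, n = 3) in untreated and 266 ± 59.4 FPKM (SD, n = 3) with C3G, and its log2 fold change was 0.25. *Nid2*, *Ecm1* and *Ccn3* had log2 fold changes of 0.06, 0.07 and 0.18, and without control replicate 1 these were 0.40, -0.11 and 0.10. With the replicate block 1 of the 40 passed, beside 1.50% of all genes: *Prelp*, a heparin-binding leucine-rich protein. It stood at 37.2, 24.5 and 34.4 FPKM in untreated libraries 1, 2 and 3, against 60.2, 30.9 and 40.3 FPKM in the treated ones, higher in each pair (log2 fold change 0.41, with a limma adjusted p of 0.794 in the block fit).

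Of 24 receptors and binding partners on the cell surface, 21 had a row and 0 passed the thresholds (0.650% of all genes), with a median log2 fold change of 0.18. The sign turned in 10 of the 21 when control replicate 1 was left out, and the median was 0.067. The groups were apart in 2 of the 21, against 4.02% of all genes. These were *Itga3* and *Itga11*, chains of a laminin and a collagen receptor, higher with C3G by 0.26 and 0.099 on the log2 scale, and by 0.11 and 0.11 without control replicate 1. The most abundant were the integrin chains *Itgb1* and *Itgb5* and the syndecans *Sdc4* and *Sdc2*, which are heparan sulfate proteoglycans of the membrane. *Itgb1*, the chain that the fibronectin receptor shares with many other integrins, had 169 ± 69.2 FPKM (SD, n = 3) in untreated and 179 ± 31.0 FPKM (SD, n = 3) with C3G. *Sdc4* had 154 ± 48.3 and 128 ± 7.50 FPKM (SD, n = 3 each) in the same order. In all 4, control replicate 1 was the extreme library of its group. The log2 fold changes were 0.17 for *Itgb1*, -0.23 for *Sdc4*, -0.29 for *Itgb5* and 0.29 for *Sdc2*. All 4 turned without control replicate 1, to -0.23, 0.018, 0.035 and -0.042 in the same order. With replicates 2 and 3 only they were -0.089, -0.0016, -0.022 and -0.0019, so *Sdc4* and *Itgb5* kept their sign. With the block, where 1.50% of all genes passed, 1 receptor did so, *Tlr4*, a sensor of bacterial lipid that matrix fragments are also known to engage, at a log2 fold change of 0.67 and a limma adjusted p of 0.794. It did not pass with the block and GC correction together, and without control replicate 1 its log2 fold change was 0.067. With replicates 2 and 3 only, the log2 fold change of *Tlr4* was 0.66. It had 0.261, 6.63 and 1.52 FPKM in untreated libraries 1, 2 and 3, against 1.01, 7.27 and 4.83 FPKM in the treated ones, so the spread between numbers was much larger than that between groups.

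Of 34 enzymes and transporters that modify these proteins, 30 had a row and 0 passed (0.650% of all genes), with a median log2 fold change of -0.012. The sign turned in 15 of the 30 when control replicate 1 was left out, and the median was 0.039. The groups were apart in 1 of the 30, a share under the 4.02% of all genes: *Chst11*, which sulfates chondroitin, by 0.091 on the log2 scale. Most of the enzymes build the chondroitin and dermatan sulfate chains of biglycan and decorin, phosphorylate osteopontin (*Fam20c*) or serve the carboxylation of matrix Gla protein (*Ggcx*, *Vkorc1*), and the list also holds the protease *Bmp1*, the crosslinking enzyme *Tgm2* and the tyrosine sulfotransferases *Tpst1* and *Tpst2*. The most abundant were *Papss1*, *Vkorc1*, *B3gat3* and *Chst12*. *Vkorc1*, which recycles vitamin K, stood at 59.7, 33.2 and 27.9 FPKM in untreated libraries 1, 2 and 3, against 31.6, 22.9 and 23.9 FPKM in the treated ones. It was lower with C3G in each pair, although the groups overlapped. The difference was -0.54 ± 0.301 (SE, log2 scale; exact permutation p = 0.2), and with the block it was the 1 gene of the 30 that passed, beside 1.50% of all genes. Its adjusted limma p with the block was 0.794. With replicates 2 and 3 only, the log2 fold change was -0.37 and *Vkorc1* again passed, beside 1.70% of all genes. Its adjusted limma p was then 0.9999. Its log2 fold change was -0.23 without control replicate 1. *Papss1* and *Chst12*, which serve the sulfation of the chains, had log2 fold changes of 0.02 and 0.04 (0.065 and 0.18 without control replicate 1), and that of *B3gat3*, which completes the linker of the chains to the protein, was -0.28 (-0.049 without that library).

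The member with the smallest limma p was *Dcn*, and the genes whose pattern over the 6 libraries was most like its own were looked up among 6866 others with a mean FPKM of at least 5. By the mean absolute difference of log2 values centred on each gene's mean, these were *Lamp2* (0.040), *Pnrc2* (0.052), *Xlr* (0.053), *Nxf3* (0.062) and *Zfp938* (0.063). Since *Dcn* was low in control replicate 1, this choice fixed that these genes were low there too, by -1.59 to -1.82 on the log2 scale. Their transcripts had 36.9% to 42.0% GC, which, given the relation to GC over all genes, is no separate result.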

How the data were processed

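RNA-seq of 6 libraries of MC3T3-E1 cells (3 control, 3 C3G) was made by the authors with a stranded kit. The authors calculated the deposited FPKM values with Ballgown. The submitters' processing notes also name cutadapt, HISAT2 2.1.0, StringTie, STAR 2.5.2b and the build hg19, without their role, whereas the identifiers are of mouse genes; the annotation used and any gene filter are not given in the sources used here. Every listed gene has a mean FPKM of at least 0.500 in 1 group or both. Samples were grouped by their titles. Symbols were matched for 11211 of 11234 identifiers, 9812 of which carry the version of GENCODE M21 (GRCm38), the source of positions and of GC content (longest protein-coding transcript).

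The test was limma 3.58.1 (eBayes with trend, R 4.3.3) on log2(FPKM + 1) of all genes, and the model held the group alone. A gene was called where the two-sided p, before adjustment, was under 0.05 and the fold change reached 1.2, the study's values. Permutation tests were exact and two-sided. Python 3.11.15 with scipy 1.17.1 was used for the rest. The fit was tested on simulated data. Libraries with the same replicate number, given in the titles, departed together from their group means (r = 0.653, 0.580 and 0.440 across genes, against -0.640 to 0.307 for other numbers), so the number was used as a block beside the main model. Alternatives were a pseudocount of 0.1, a mean FPKM of at least 1, quantile normalization, an ordinary linear model, centring on the median, the block, a GC correction (spline with 5 degrees of freedom) with and without the block, replicates 2 and 3 only, and each library left out. The members and lists were chosen with earlier results of these data known. Text names all members, the 4 most abundant and any called gene of each list, the cell type markers and the 5 genes most like the member of smallest p. *Aspn*, *Omd*, *Ogn*, *Lum*, *Prelp*, *Podn*, *Smoc1*, *Itga3*, *Itga11*, *Chst11*, *Tlr4* and *B3galt6* were named after their values were seen, and *Fam20c*, *Ggcx*, *Bmp1*, *Tgm2*, *Tpst1* and *Tpst2* only as examples of function.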

Additional observations from a re-analysis of the deposited data

How the results depend on the processing

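Of 135 alternative values for the 9 matrix genes, 0 passed the thresholds. The direction turned in 19 of the 135. The ordinary linear model, the floor on FPKM and the block leave the fold change as it is, and the GC correction with the block repeats that of the GC correction alone. Without these 4 settings it turned in 17 of 99. After GC correction, both in the fit with the replicate block and in the fit lacking it, *Spp1* was at -0.055 and *Postn* at -0.012 (log2 fold change). With replicates 2 and 3 only, *Spp1* was at -0.10, *Sparc* at 0.042, *Postn* at -0.040, *Bgn* at -0.11 and *Mgp* at -0.14. *Fn1* was at -0.061 with quantile normalization and -0.0062 with median centring. With 1 library left out at a time, the ranges were -0.11 to 0.24 for *Spp1*, -0.22 to 0.14 for *Sparc*, -0.092 to 0.44 for *Postn*, -0.00083 to 0.11 for *Fn1*, -0.056 to 0.86 for *Dcn*, -0.089 to 0.47 for *Tnc* and -0.067 to 0.22 for *Mgp*. Control replicate 1 decided the direction of *Spp1* (-0.11 without it), *Sparc* (0.14), *Postn* and *Dcn* (-0.056), C3G replicate 1 that of *Tnc* and *Mgp*, and C3G replicate 3 that of *Postn* and *Fn1*. The cause was not tested.

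The count of called genes among all genes was 73 and became 48 with the ordinary linear model, 141 with the GC correction, 169 with the replicate block, 248 with both and 191 with replicates 2 and 3 only, and it was 40 to 144 with 1 library left out. The block changed the call of *Prelp*, *Tlr4* and *Vkorc1* and of 0 matrix genes. Of the 40 relatives, 1 passed with the block, 2 with the block and GC correction (*Prelp* and *Ogn*) and 1 with replicates 2 and 3 only (*Ogn*). Of the 21 receptors, 1 passed with the block (*Tlr4*) and 0 with the block and GC correction. Of the 30 enzymes, 1 passed with the block, 2 with the block and GC correction (*Vkorc1* and *B3galt6*) and 1 with replicates 2 and 3 only. With 1 library left out, 0 to 1 enzymes passed (*Vkorc1*, without control replicate 3). Over all genes 1.50% passed with the block and 2.21% with the block and GC correction. With replicates 2 and 3 only 1.70% did, and without control replicate 3 0.890%. Depth is unknown, so no counting error can be given.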
